A study of Mus musculus with 12 samples.

Results

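Mag, Cnp, Mbp, Mog, Mobp, Cldn11, Ugt8a, Myrf and Opalin are 9 genes of myelin and of the mature oligodendrocytes that make it. They were taken by symbol from a table of read counts per gene, which held all 9 among its 52634 genes. The filter on low counts left 17631 genes for testing and kept 8 of the 9. Opalin was left out by it, with 0 to 3 counts in each library.

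Oligodendrocytes wrap axons in a spiral of membrane whose layers are pressed together into compact myelin, which insulates the axon and speeds conduction. They arise from precursor cells that divide, stop dividing, pass through a short newly formed stage and then switch on the genes of the sheath. In the rodent hippocampus this switch begins after birth, later than in the brainstem and spinal cord, so the first postnatal week lies at the onset of myelination there.

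RNA was sequenced from the dorsal hippocampus of mouse pups at postnatal day 7. SERTPyramid pups lack the serotonin transporter gene Slc6a4 in pyramidal neurons through a conditional deletion, and SERTfl/fl pups, the controls, carry the loxP-flanked gene without that deletion. Both genotypes were labelled female or male, with 3 libraries in each of the 4 groups, and every library is a pool of 4 mice. The sources used here name no Cre driver or strain and do not say whether pools shared litters. The p-values thus measure the spread between these pools.

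Library totals were 18747249 to 25522347 counts, and 3 counts, the most that a count of 0 allows, equal 0.118 to 0.160 CPM (counts set relative to the library total). Such floors cover counting error only. Slc6a4 had 1 to 12 counts in SERTPyramid libraries and 0 to 17 counts in SERTfl/fl libraries, too few to check the genotype, and a total per gene does not separate the deleted exons. Xist and Y-linked transcripts did not match the labelled sex in 10 libraries, the exceptions being replicate 1 of the SERTfl/fl libraries of each labelled sex. The words labelled female and labelled male are used for this reason. Genotype differences without those 2 control libraries are also given where their sign turned, and for some others that moved. Summed CPM of 10 genes of pyramidal and hippocampal neurons ran from 1755 to 1961, and none of them stayed at 3 counts or fewer throughout. Choroid plexus genes, 12 of them, summed to between 32.12 CPM in labelled-female SERTPyramid replicate 3 and 2536 CPM in labelled-male SERTPyramid replicate 1.

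Cnp and Mbp were the most abundant of the 9 genes in every library, compared as CPM per kilobase of exon. Cnp averaged 16.7 ± 1.24 CPM per kilobase (SD, n = 12), Mbp 11.5 ± 1.32 and Cldn11 4.16 ± 0.873. Ugt8a followed with 1.77 ± 0.211, Mog with 1.57 ± 0.192, Myrf with 1.41 ± 0.223 and Mag with 1.11 ± 0.293 CPM per kilobase. Mobp, at 0.102 ± 0.132, and Opalin, at 0.0231 ± 0.0125 CPM per kilobase, were far below the others. The ranges over the 12 libraries did not meet between Cnp and Mbp, Mbp and Cldn11, Cldn11 and Ugt8a, or Mag and Mobp. The middle of the order was less sharp, since Ugt8a was above Mog in 10 of 12 libraries, Mog above Myrf in 9 and Myrf above Mag in 11. Mbp and Cnp together made up 79.4 to 83.3% of the summed CPM of the 9 genes, a sum of 164.0 to 237.4 CPM.

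Mbp encodes myelin basic protein, which holds the inner faces of the compact membrane together (ENSMUSG00000041607, chromosome 18, 82475146 to 82585637, plus strand, GRCm38). The same locus also gives Golli transcripts, which are made in neurons and immune cells too, and the count per gene does not separate them. In labelled-female libraries Mbp had 95.3, 105.0 and 91.9 CPM with SERTPyramid and 107.2, 84.0 and 94.2 CPM with SERTfl/fl. The labelled-male pools gave 119.9, 99.5 and 100.8 CPM with SERTPyramid and 79.2, 88.9 and 106.1 CPM with SERTfl/fl. The genotypes overlapped in both labelled sexes, and the SERTPyramid replicate with 119.9 CPM was the highest of all 12.

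Mobp encodes a small basic protein of compact myelin that appears late, after the first wraps (ENSMUSG00000032517, chromosome 9, 120149707 to 120181484, plus strand). Labelled-female pools gave 0.355, 0.237 and 0.677 CPM with SERTPyramid and 1.69, 0.170 and 0.219 CPM with SERTfl/fl. Labelled-male pools gave 3.25, 0.602 and 0.345 CPM with SERTPyramid and 0.213, 0.196 and 0.414 CPM with SERTfl/fl. As counts, the 2 high libraries held 76 (labelled-male SERTPyramid replicate 1) and 39 (labelled-female SERTfl/fl replicate 1), against 4 to 16 in the other 10. One pool of each genotype was thus high, and the highest level was 19.1 times the lowest.

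Cnp encodes a phosphodiesterase of the uncompacted membrane that keeps channels of cytoplasm open, and it is switched on early, already in late precursors (ENSMUSG00000006782, chromosome 11, 100574904 to 100591729, plus strand). The SERTPyramid pools labelled female had 61.9, 61.0 and 57.9 CPM, against 62.1, 58.2 and 60.1 CPM in SERTfl/fl. The SERTPyramid pools labelled male had 68.7, 64.3 and 62.2 CPM, against 56.5, 51.8 and 66.3 CPM in SERTfl/fl. Replicate 3 of the labelled-male controls lay among the SERTPyramid values, and the other 2 controls lay below all of them.

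Mag encodes a sialic acid-binding adhesion protein on the innermost membrane, facing the axon (ENSMUSG00000036634, chromosome 7, 30899176 to 30914873, minus strand). It stood at 4.50, 4.51 and 3.85 CPM in labelled-female SERTPyramid libraries and at 5.56, 4.51 and 3.33 CPM in labelled-female SERTfl/fl libraries. It stood at 7.73, 4.34 and 4.57 CPM in labelled-male SERTPyramid libraries and at 4.21, 3.45 and 3.44 CPM in labelled-male SERTfl/fl libraries. Among labelled-male libraries every SERTPyramid value was above every control value, by a small margin apart from the replicate with 7.73 CPM.

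The sequence before the start of Mobp, Mag and Cnp is shown because the 3 genes span the spread between pools, from Cnp, the least variable relative to its level, to Mobp, the most. The windows come from RefSeq promoters on GRCm38.p6 and are trimmed where an annotated exon begins. They were taken for 7 of the 9 genes, all but Mbp and Myrf. They lie at chr9:120149492-120149706 (plus strand, Mobp), chr7:30914923-30915172 (minus strand, Mag) and chr11:100574689-100574903 (plus strand, Cnp). Capitals mark the core of SOX sites, ACAAAG or its complement CTTTGT (the factor SOX10 binds such sequences in myelin genes), and the MYRF motif CTGGCAC or its complement GTGCCAG. Both strands were searched, and no marked matches overlap.
Mobp: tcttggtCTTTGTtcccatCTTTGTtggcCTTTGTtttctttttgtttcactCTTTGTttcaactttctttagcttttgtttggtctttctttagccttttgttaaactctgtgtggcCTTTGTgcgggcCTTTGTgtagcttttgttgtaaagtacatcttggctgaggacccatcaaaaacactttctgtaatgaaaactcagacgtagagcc
Mag: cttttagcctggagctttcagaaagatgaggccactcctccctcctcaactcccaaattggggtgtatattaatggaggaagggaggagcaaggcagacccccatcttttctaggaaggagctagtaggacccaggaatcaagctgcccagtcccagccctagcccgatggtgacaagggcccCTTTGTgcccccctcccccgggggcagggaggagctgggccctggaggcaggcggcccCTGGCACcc
Cnp: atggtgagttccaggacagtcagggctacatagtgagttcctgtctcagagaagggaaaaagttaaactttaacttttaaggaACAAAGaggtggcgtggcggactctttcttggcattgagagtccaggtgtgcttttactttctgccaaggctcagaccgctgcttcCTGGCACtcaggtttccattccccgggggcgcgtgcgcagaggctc
Mobp had 6 matches to the SOX core in its window, the most of any of 27025 RefSeq promoters, of which 16.5% held at least 1 in the 250 bases before the start. All 6 read CTTTGT and lay in a T-rich stretch where similar letters, such as cttttgt, recur. Binding was not tested. Mag and Cnp each had 1 SOX core and 1 MYRF motif, and 4.16% of promoters held the MYRF motif. Opalin had 1 SOX core, and Mog, Cldn11 and Ugt8a had neither of these letters in the window. The E-box CAGCTG, present in 12.7% of promoters, and the TATA box TATAAA, present in 13.0%, were found in none of the 7.

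Mog encodes an immunoglobulin-like protein on the outermost layer of the sheath, one of the last to appear and a target in autoimmune demyelination (ENSMUSG00000076439, chromosome 17, 37010743 to 37023398, minus strand). Its level was 2.60, 2.99 and 2.79 CPM in SERTPyramid and 2.95, 2.30 and 2.76 CPM in SERTfl/fl among labelled-female libraries. Its level was 2.14, 2.28 and 2.63 CPM in SERTPyramid and 3.04, 3.13 and 2.49 CPM in SERTfl/fl among labelled-male libraries. The range of all 12, 50 to 80 counts, was narrow, and labelled-male SERTPyramid replicate 1, the library highest for 7 of the 9 genes, was the lowest for Mog.

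Cldn11 encodes the claudin that seals the spiral of the sheath with tight junctions and is also made by cells of the arachnoid barrier (ENSMUSG00000037625, chromosome 3, 31149920 to 31164324, plus strand). Libraries labelled female had 9.31, 7.64 and 7.58 CPM in SERTPyramid and 9.55, 6.46 and 7.19 CPM in SERTfl/fl. Libraries labelled male had 10.8, 7.39 and 6.29 CPM in SERTPyramid and 4.75, 8.74 and 7.67 CPM in SERTfl/fl. The control pool with 4.75 CPM was the lowest of the 12 and the SERTPyramid pool with 10.8 CPM the highest, and the genotypes overlapped in both labelled sexes.

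Ugt8a encodes the enzyme that makes galactosylceramide, the main glycolipid of myelin (ENSMUSG00000032854, chromosome 3, 125865271 to 125938619, minus strand). SERTPyramid libraries labelled female had 8.01, 7.12 and 7.75 CPM, against 8.64, 6.42 and 8.64 CPM in SERTfl/fl. SERTPyramid libraries labelled male had 10.04, 8.0 and 7.80 CPM, against 6.93, 8.74 and 8.08 CPM in SERTfl/fl. All values but 1 lay between 6.42 and 8.74 CPM.

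Myrf encodes the membrane-bound transcription factor that oligodendrocytes need to switch on and keep on the genes of the sheath, including Mbp and Mag (ENSMUSG00000036098, chromosome 19, 10208272 to 10240748, minus strand). It reached 12.9, 14.8 and 10.6 CPM in labelled-female SERTPyramid pools and 13.7, 10.5 and 11.5 CPM in the SERTfl/fl pools. Among labelled-male pools it reached 14.8, 12.9 and 10.9 CPM in SERTPyramid and 9.17, 9.95 and 13.6 CPM in SERTfl/fl. High and low pools occurred in both genotypes.

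Opalin encodes a transmembrane glycoprotein of central myelin that marks fully mature oligodendrocytes (ENSMUSG00000050121, chromosome 19, 41061710 to 41077113, minus strand). Its counts were 3, 1 and 0 in labelled-female SERTPyramid libraries and 1, 2 and 2 in labelled-female SERTfl/fl libraries. They were 1, 3 and 2 in labelled-male SERTPyramid libraries and 1, 1 and 2 in labelled-male SERTfl/fl libraries. All 12 values were at or under the floor of 3 counts, so Opalin was barely detected. It was not tested, and a fall or a small difference could not have been seen at this depth.

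**Figure D1:**
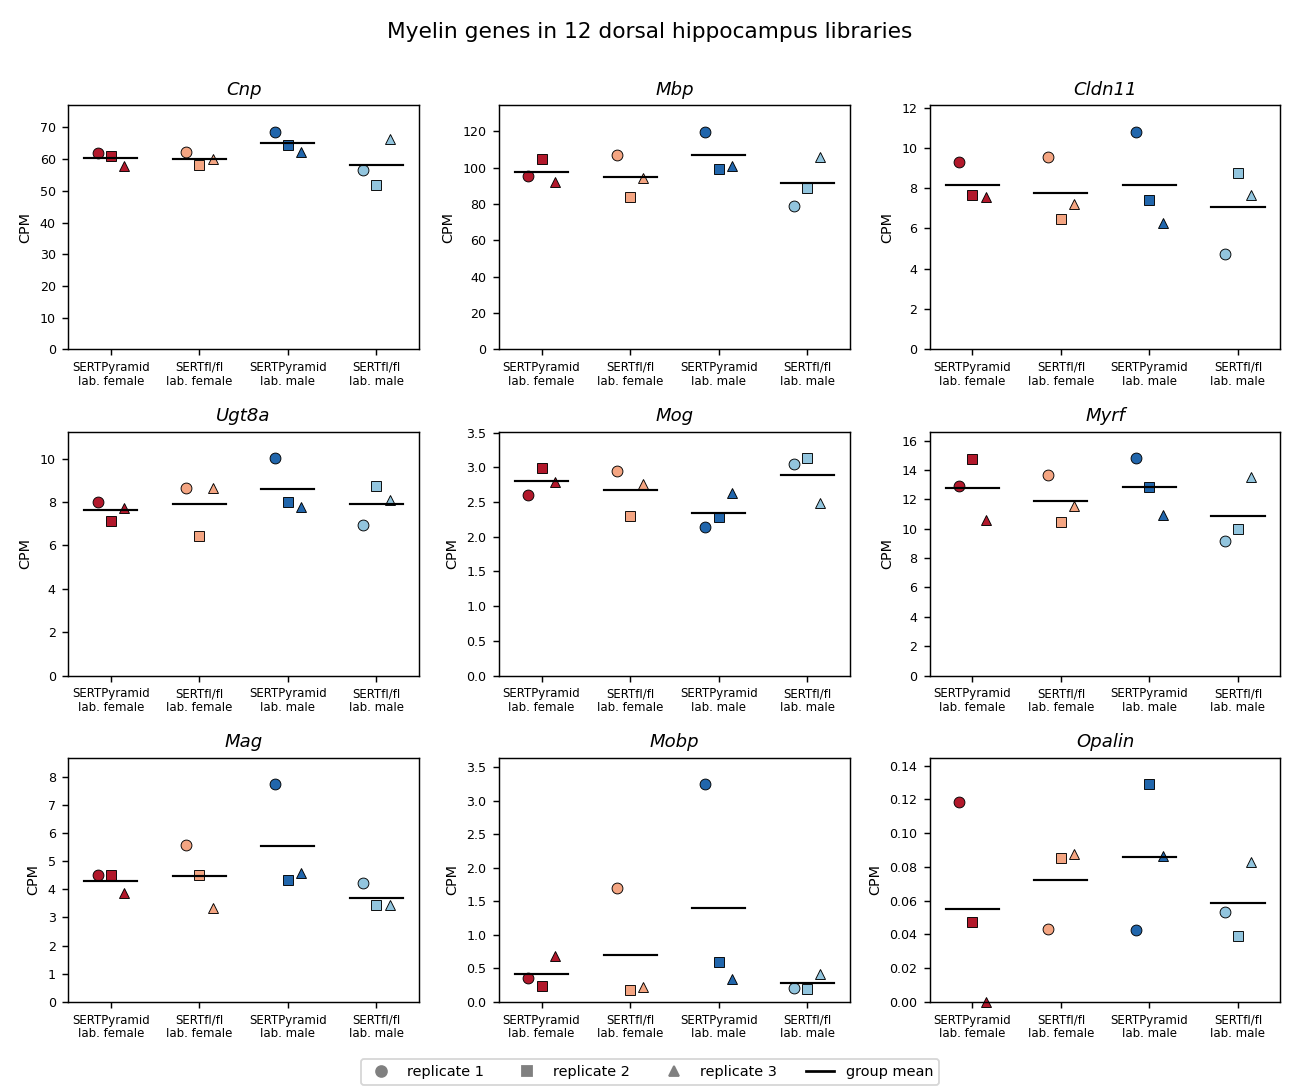
Level of each of the 9 genes (CPM, vertical axis from 0, own scale for each gene) in every library, by genotype and labelled sex; points are libraries and bars are means of 3. Labelled-male SERTPyramid replicate 1 is the highest point for 7 genes and stands far apart for Mobp, at 3.25 CPM, and Mag, at 7.73 CPM.

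The pools differed from each other by more than counting error for 7 of the 9 genes. Most tested genes did so too, with a median variance of 2.13 times the Poisson value, so this count is not particular to myelin genes. Mobp had a coefficient of variation (CV) of 130% over the 12 libraries, where counting alone would give 24.8%. Mbp, the gene with the most counts, had a CV of 11.5% against 2.10% from counting. Its variance was 28.6 times the Poisson value (27.2 times for Mobp), higher than for 97.1% of tested genes, whose median ratio was 2.13. For Mag the CV was 26.5% (9.81% from counting), for Cldn11 20.97% (7.42%), for Myrf 15.8% (5.97%), for Ugt8a 11.9% (7.33%) and for Cnp 7.42% (2.66%). Ugt8a, with a variance 2.58 times the Poisson value, lay close to that median. Mog, with a CV of 12.2%, and Opalin, with 54.0%, varied no more than counting alone allows, 12.7% and 79.5%. Relative to counting error, Mog varied least of the 8 tested genes, and its variance ratio of 0.924 was higher than that of 10.1% of all tested genes. These ratios take all 12 libraries together, with the groups mixed. At an equal CV the ratio rises with the number of counts, so its ranks also reflect depth. Mbp had 27169 counts in all and Mog 741, with CVs of 11.5% and 12.2%. In a bulk pool, fewer oligodendrocytes and less RNA per cell cannot be told apart.

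The same few pools were high or low for most of the genes. After each gene was set to mean 0 and SD 1 on the log2 CPM scale, labelled-male SERTPyramid replicate 1 averaged 1.15 over the 9 genes and was the highest library for Mag, Cnp, Mbp, Mobp, Cldn11, Ugt8a and Myrf. Labelled-female SERTfl/fl replicate 1 averaged 0.77 and was among the top 3 for 7 genes. The lowest means were -0.89 in labelled-male SERTfl/fl replicate 1, which was lowest for Mbp, Cldn11 and Myrf, and -0.71 in labelled-female SERTfl/fl replicate 2. The high pools were 1 of each genotype, and both of the low pools were controls. By transcripts the 2 high pools were alike, with 21713 and 20646 counts of Xist and 5 and 1 Y-linked counts. The 2 low pools had 14 and 59 counts of Xist and 2159 and 3059 Y-linked counts. Labelled-male SERTfl/fl replicate 2, with 22750 counts of Xist and 0 Y-linked counts, averaged -0.4. Whether the myelin values went with sex by transcripts was not tested. Labelled-male SERTPyramid replicate 1 also had the highest summed CPM of choroid plexus genes (2536), meningeal fibroblast genes (641) and ependymal genes (59.42), and labelled-male SERTfl/fl replicate 1, with low myelin genes, had the next highest choroid plexus sum (1863). Labelled-female SERTfl/fl replicate 1 had 997 CPM of choroid plexus and 515.7 CPM of meningeal fibroblast genes, within the range of the other libraries. The 10 astrocyte genes summed highest in the 2 pools with high myelin genes, to 3983 CPM in labelled-male SERTPyramid replicate 1 and 4059 CPM in labelled-female SERTfl/fl replicate 1, and lowest, to 3380 CPM, in labelled-male SERTfl/fl replicate 1, while the other 9 libraries lay at or below 3815 CPM. The 10 genes of Schwann cells, the myelin-forming cells of peripheral nerve, include Sox10, which oligodendrocytes also express. They summed to between 173.9 and 197.8 CPM, with the highest sum again in labelled-male SERTPyramid replicate 1, and 1 of the 10, Pmp2, stayed at 3 counts or fewer in all libraries. Red blood cell genes, 6 of them, were also highest there, at 69.25 CPM, with a lowest sum of 43.89 CPM in labelled-female SERTPyramid replicate 3. The part of these other cells and tissues in the myelin values was not tested.

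**Figure D2:**
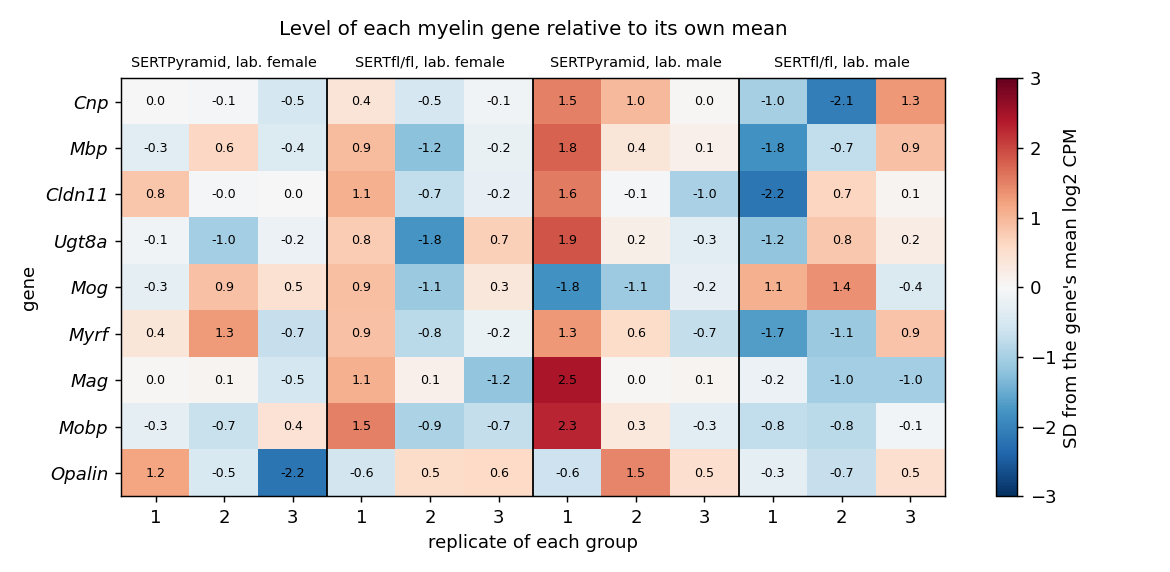
Level of each gene (rows) in each library (columns, 3 replicates of each group) as SD units from the gene's own mean log2 CPM; red is higher and blue is lower. The column of labelled-male SERTPyramid replicate 1 is red for 7 genes and blue for Mog, and the column of labelled-male SERTfl/fl replicate 1 is blue for most genes.

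Whether the loss of the transporter in pyramidal neurons went with a change in myelin genes was asked within each labelled sex. None of the 8 tested genes passed edgeR's quasi-likelihood F test with Benjamini-Hochberg adjustment over all 17631 genes, in any of the 4 contrasts. The background was 0.0% of tested genes called in each contrast. At an unadjusted p under 0.05, 8.04% of tested genes passed in labelled-female libraries, 3.16% in labelled-male libraries, 4.45% for the difference between them and 6.49% for their mean. DESeq2 called 1, 0, 1 and 0 genes in these contrasts and limma voom 0 in each, and neither tool called any of the 8.

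In labelled-female libraries the 8 genes were balanced around no difference, with log2 fold changes (SERTPyramid over SERTfl/fl) above 0 for 4 and below 0 for 4. Among all tested genes 49.9% were above 0. The median of the 8 was 0.001, beside -0.0004 over all tested genes. Mbp differed by 0.02 ± 0.12 (log2 ± SE, n = 3 against 3), with a 95% interval of -0.26 to 0.29 and an edgeR adjusted p of 0.984. Cnp, with the narrowest interval, differed by -0.01 ± 0.07 (-0.17 to 0.14, edgeR adjusted p = 0.976). The genotypes overlapped for all 8 genes, while among all tested genes 11.8% had SERTPyramid values entirely above the control values and 6.99% entirely below. Intervals for Mog, Ugt8a, Myrf, Mag and Cldn11 reached as far as -0.54 (Mag) and 0.62 (Cldn11). Differences of that size in those 2 genes were thus not excluded by these pools. The estimate for Mobp, -0.71 ± 1.19, rested on SERTfl/fl replicate 1, and without that library it was 1.10.

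In labelled-male libraries 7 of the 8 genes had log2 fold changes above 0, where 50.5% of all tested genes did, and the exception was Mog. Their median was 0.192, beside 0.0016 over all tested genes. Marker genes of some other cells leaned the same way in this contrast. Above 0 were 10 of 10 meningeal fibroblast genes (median 0.128), 9 of 10 astrocyte genes (0.035) and 9 of 10 microglia genes (0.097). Some lists leaned less by count but also had medians above 0. Among neurons, 7 of 10 pyramidal and hippocampal (median 0.056) and 6 of 8 dentate granule genes (0.036) were above 0. So were 5 of 8 ependymal (0.06), 3 of 5 tested red blood cell (0.079) and 6 of 10 thalamus and habenula genes (0.016). The other lists of cells outside the lineage had medians below 0. Above 0 were 4 of 10 endothelial (median -0.022), 3 of 8 Schwann cell (-0.032), 3 of 9 interneuron (-0.044) and 5 of 12 choroid plexus genes (-0.052). None of the genes in these lists was called. These counts are a description, because the genes rise and fall together between pools and are not independent. Mag, at 5.55 ± 1.90 CPM in SERTPyramid and 3.70 ± 0.444 CPM in SERTfl/fl (SD, n = 3 each), differed by 0.58 ± 0.22 on the log2 scale. Its interval was 0.12 to 1.04, its unadjusted p from edgeR 0.0168 and its edgeR adjusted p 0.999. It was the 1 gene of the 8 whose genotypes did not overlap, and 4.09% of tested genes had SERTPyramid values all above the control values in this way, with 2.66% all below. The difference for Mag shrank to 0.27 without SERTPyramid replicate 1 and was 0.67 without the 2 control libraries whose transcripts matched their labels.

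Mobp had the highest log2 fold change of all 17631 tested genes in this contrast, 2.30 ± 1.16, with an interval of -0.35 to 4.95 and an edgeR adjusted p of 0.999. Its group means were 1.40 ± 1.61 CPM in SERTPyramid and 0.275 ± 0.122 CPM in SERTfl/fl (SD, n = 3 each), and the genotypes overlapped. Without SERTPyramid replicate 1 the difference fell to 0.75. The other members differed by less, Myrf by 0.22 ± 0.17, Mbp by 0.21 ± 0.12, Cldn11 by 0.18 ± 0.25, Cnp by 0.15 ± 0.07 and Ugt8a by 0.10 ± 0.13. Mog, at 2.35 ± 0.253 CPM in SERTPyramid and 2.89 ± 0.350 CPM in SERTfl/fl, differed by -0.31 ± 0.16, with an interval of -0.65 to 0.03. The edgeR adjusted p was 0.999 for each of these genes. With 1 library left out, the difference ran from 0.11 (without SERTPyramid replicate 1) to 0.42 (without SERTfl/fl replicate 3) for Myrf. It ran from 0.11 (without SERTfl/fl replicate 1) to 0.34 (without SERTfl/fl replicate 3) for Mbp, and from 0.06 (without SERTfl/fl replicate 2) to 0.26 (without SERTfl/fl replicate 3) for Cnp.

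The difference between the labelled sexes was itself tested, as the female minus the male genotype difference. Mag had -0.66 ± 0.31 on the log2 scale (interval -1.31 to -0.01, edgeR unadjusted p = 0.0477, adjusted p = 0.999). The Mag difference was -0.34 without labelled-male SERTPyramid replicate 1 (edgeR unadjusted p = 0.17) and -0.16 without both pools with high Mobp (edgeR unadjusted p = 0.504). Mobp had -3.0 ± 1.69 and Mog 0.36 ± 0.23, both with an edgeR adjusted p of 0.999. Mog was the 1 gene above 0, 7 were below, and 51.0% of all tested genes were above 0. Averaged over the labelled sexes, the genotype differences were 0.25 ± 0.15 for Mag (edgeR adjusted p = 0.772), 0.80 ± 0.87 for Mobp, 0.11 ± 0.09 for Mbp and -0.13 ± 0.11 for Mog. They were above 0 for 7 of the 8, all but Mog, where 49.3% of all tested genes were above 0. Without labelled-male SERTPyramid replicate 1 the mean difference was 0.10 for Mag and 0.02 for Mobp, and without labelled-female SERTfl/fl replicate 1 it was 0.35 for Mag and 1.70 for Mobp. That of Mbp ran from 0.07 to 0.18 with 1 library left out. Cnp again had the narrowest interval of the 8, -0.04 to 0.17.

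**Figure D3:**
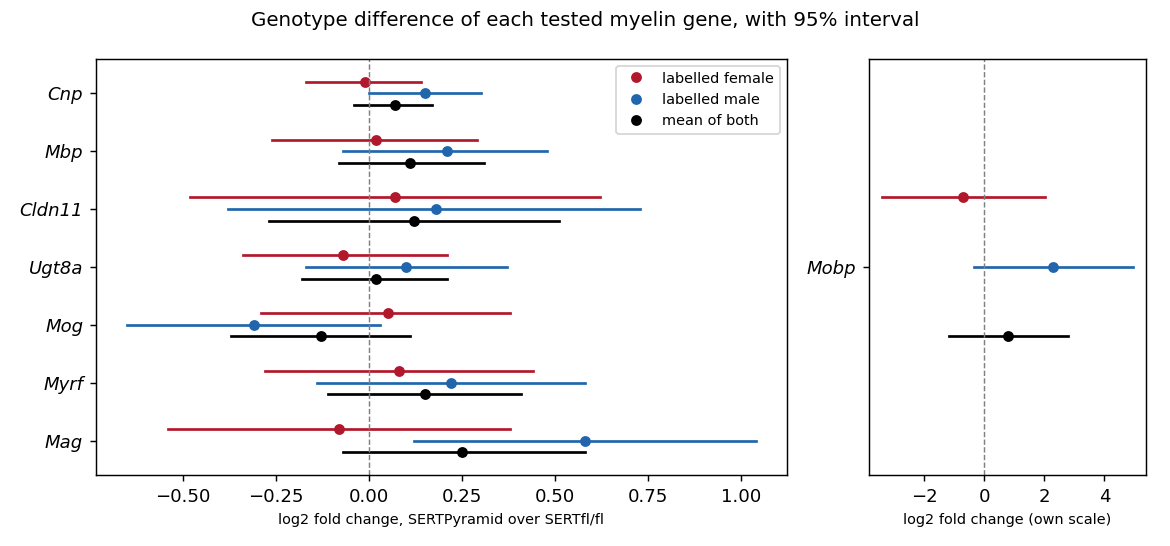
Genotype difference (log2 fold change, SERTPyramid over SERTfl/fl, horizontal axis) of the 8 tested genes with its 95% interval, for labelled-female libraries, labelled-male libraries and their mean; Mobp is on its own, wider scale. The intervals hold 0 throughout, except for Mag in labelled-male libraries (0.12 to 1.04).

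Genes of the neighbouring stages of the lineage were read from the same fit, from lists of marker genes. Of 23 tested genes among 28 other myelin and mature oligodendrocyte genes, 0 were called in either direction in any contrast. Their median log2 fold change was 0.069 in labelled-female libraries, with 15 of 23 above 0, and 0.057 in labelled-male libraries, with 17 of 23 above 0. The genes with the smallest p were Sirt2, a deacetylase of the sheath, and Anln, an actin-binding protein, in labelled-female libraries. Sirt2 had 135.1 ± 1.79 CPM in SERTPyramid and 122.9 ± 3.06 CPM in SERTfl/fl (SD, n = 3 each; log2 0.12 ± 0.04, edgeR adjusted p = 0.542). Among labelled-male libraries they were Tmem88b, at -0.45 ± 0.17, and Evi2a, at -0.44 ± 0.19, both with an edgeR adjusted p of 0.999. Anln differed by -0.16 ± 0.09 in labelled-female libraries (edgeR adjusted p = 0.702).

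Newly formed oligodendrocyte genes, 14 tested, had a median of 0.044 among libraries labelled female, with 9 above 0, and of 0.07 among those labelled male, with 12 above 0. None was called. Bcas1, which marks cells about to myelinate, had 37.5 ± 3.25 CPM in labelled-male SERTPyramid and 30.9 ± 6.35 CPM in labelled-male SERTfl/fl libraries (log2 0.26 ± 0.13, edgeR adjusted p = 0.999). Tcf7l2, a factor of newly formed cells, differed by 0.20 ± 0.13 there, and Rras2 by -0.08 ± 0.05 among libraries labelled female. The 12 precursor genes had medians of 0.007 and 0.025, with 6 and 7 above 0, and none was called. Sox10, the factor of the whole lineage, had 63.8 ± 1.68 CPM in labelled-female SERTPyramid and 55.2 ± 3.56 CPM in SERTfl/fl libraries, a log2 difference of 0.19 ± 0.06 with an edgeR adjusted p of 0.53. Cspg4, the NG2 proteoglycan of precursors, differed by 0.22 ± 0.07 with the same adjusted p. In labelled-male libraries C1ql1 differed by 0.23 ± 0.08 and Olig2 by 0.14 ± 0.06, both with an edgeR adjusted p of 0.999. Of 19 tested myelin regulators 0 were called, with medians of -0.008 and 0.005. Their smallest p outside the genes already named were those of Zeb2, at -0.14 ± 0.06 in libraries labelled female, and of Zfp488, at 0.22 ± 0.13 in libraries labelled male, neither past the threshold.

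The summed CPM of the marker lists of the stages differed widely at this age. Summed over 12 genes, precursor markers had 1924 to 2140 CPM in a library, and the 14 newly formed markers found had 691.6 to 782.4 CPM. The 28 other myelin genes had 399.4 to 458.6 CPM. These sums depend on which genes each list holds and are not per length, so their ratio is not a ratio of cells. Ptprz1 alone gave 869.4 to 1007 CPM of the precursor sum, and Fyn 300.7 to 322.4 CPM of the newly formed sum. Sirt2 is on both the newly formed and the other myelin list.

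Many pairs of the genes were correlated between libraries, and Mog and Opalin were the exceptions. Over 36 pairs of the 9 genes, the median Pearson's r of log2 CPM was 0.40 (n = 12 libraries), beside -0.003 over all pairs of tested genes. Of the 36 pairs, 38.9% had r above 0.5 and 19.4% above 0.7, shares that were 7.02% and 1.32% among all pairs of tested genes. Of the 36 pairs, 23 were above 0. The 2 pools with high Mobp weighed on this, since without them the median over the 36 pairs was 0.148, with 25 above 0. The 21 pairs that leave out Mog and Opalin, chosen with their values in view and so only a description, had r from 0.31 to 0.89 and a median of 0.65. After group means were removed the median of those 21 pairs was 0.65 as well. These pairs share libraries and genes, so they are not independent of each other.

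Mbp and Myrf, an abundant sheath gene and its regulator, were the closest pair, with r = 0.89 and rho = 0.92 (permutation test, 2-sided, p = 9e-05 for each, adjusted over the 36 pairs 0.00324). Without the 2 libraries farthest from the median of Mbp, r was 0.83. Cnp went with Mbp (r = 0.79, rho = 0.88) and with Myrf (r = 0.79, rho = 0.80), with permutation p adjusted over the 36 pairs of 0.0312 for both r. Cldn11 and Ugt8a had r = 0.75 and rho = 0.75, and Mbp and Mobp the same values, with permutation p adjusted over the pairs of 0.0343 for r and 0.049 for rho. Without the 2 farthest libraries r was 0.82 for Cnp and Mbp, 0.74 for Cnp and Myrf, 0.58 for Cldn11 and Ugt8a, and 0.59 for Mbp and Mobp. These 5 pairs were the ones with an adjusted p under 0.05 by both measures.

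The pair of Mag and Mobp rested on the 2 pools with high Mobp. It had r = 0.79 (permutation p adjusted over the 36 pairs, 0.0343), but rho was 0.36 (adjusted p = 0.368), and r was 0.05 without those 2 pools. Leaving out those pools, a choice made after their values were seen, brought the median of the 21 pairs to 0.31, with 18 above 0, while Mbp and Myrf kept r = 0.86. Leaving out for each pair the 2 libraries farthest from the median of its first gene gave a median of 0.34 over the 21 pairs, with 20 above 0.

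Mog had negative correlations with all the other genes. Its 8 pairs ran from r = -0.70 with Cnp (rho = -0.65, permutation p adjusted over the 36 pairs 0.0456 for r and 0.118 for rho) to -0.16 with Ugt8a. Without the 2 libraries farthest from the median, r with Cnp was -0.43, and the median over the 8 pairs was -0.06. Without the 2 pools with high Mobp, r with Cnp was -0.69, and the median was -0.335, with 1 of the 8 pairs above 0. Mog varied between libraries no more than counting alone allows, and the 8 pairs of Opalin, 2 of them above 0, rest on 0 to 3 counts, so the pairs of both genes are given as values only.

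**Figure D4:**
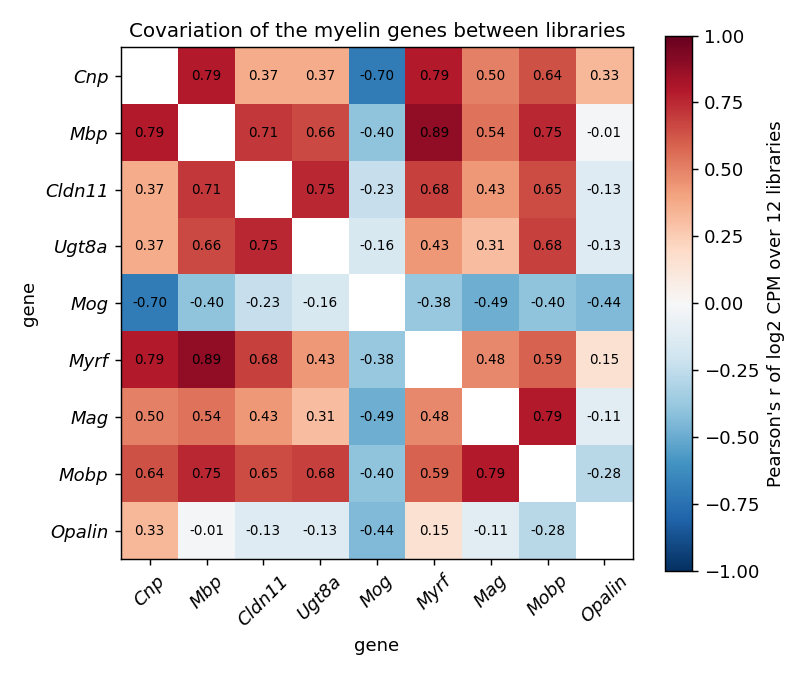
Pearson's r of log2 CPM over 12 libraries for each pair of the 9 genes (both axes list the genes). Mbp and Myrf are the closest pair, at 0.89, and the row and column of Mog are below 0 throughout.

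The genes most like the group were found from the correlation of each other tested gene with the mean standardized level of the 9 over 12 libraries, as a description without a test. The closest included Asb4 (r = 0.91), Cecr2 (0.90), Heatr6 (0.89), Cd163 (0.88), Tec (0.87), Atad2 (0.86), Mpp5 (0.86), Fcer1g (0.86) and Mbnl2 (0.85). All of these were highest in labelled-male SERTPyramid replicate 1. Cd163 and Fcer1g are genes of macrophages and other myeloid cells, and without the 2 pools with high Mobp they had r of 0.82 and 0.84. The 10 microglia genes listed summed highest, to 251.5 CPM, in labelled-female SERTfl/fl replicate 1, where myelin genes were also high, and lowest, to 224.8 CPM, in labelled-male SERTfl/fl replicate 1, where they were low. Their sum in labelled-male SERTPyramid replicate 1 was 238.9 CPM.

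Among lineage lists, likeness to the 9 genes was highest for the newly formed stage. The 14 newly formed oligodendrocyte genes had a median r of 0.67 with the mean of the 9, and 8 of them were above 0.5, with Bcas1 at 0.83, Gpr17 at 0.82, and Enpp6 and Neu4 at 0.78. The lowest of this list was Fyn, at -0.17. Other myelin and mature genes, 23 of them, had a median of 0.39, from -0.37 for Evi2a up to 0.86, and 5 of them were above 0.5. The 12 precursor genes had a median of 0.215, with Pdgfra, the receptor that marks these cells, at 0.20. Over all tested genes the median was 0.00925. Without the 2 pools with high Mobp the medians were 0.55 for newly formed, 0.31 for other myelin and 0.40 for precursor genes, so the order of mature and precursor genes turned round and the newly formed stage stayed at the top. Gpr17, a receptor that is switched on in newly formed cells and off in mature ones, ran from 83.9 to 136.3 CPM. The difference between lists was not tested.

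**Figure D5:**
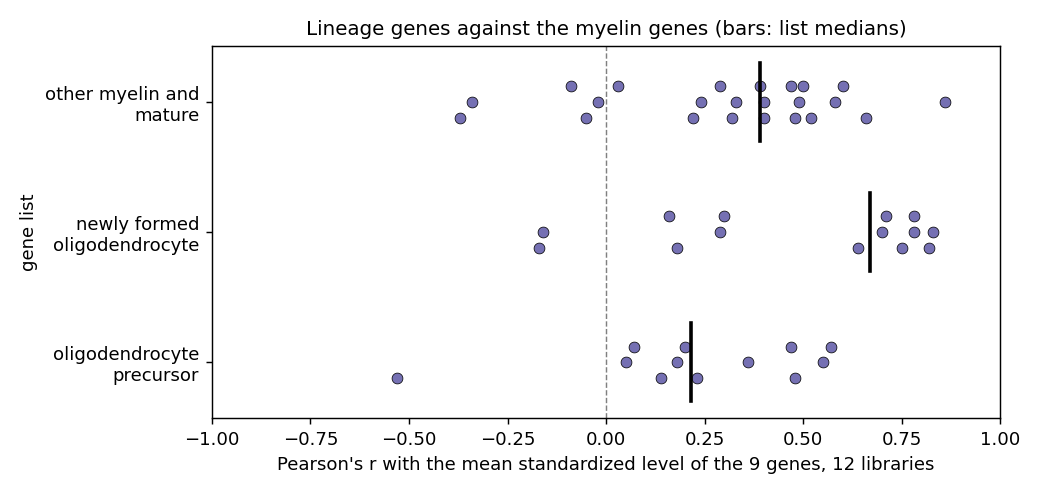
Pearson's r of single genes with the mean standardized level of the 9 myelin genes over 12 libraries (horizontal axis), by lineage list (rows); points are genes and bars are list medians. The bar of newly formed oligodendrocyte genes is at 0.67, that of other myelin genes at 0.39 and that of precursor genes at 0.215.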

How the data were processed

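Counts of reads per Ensembl gene were deposited by the authors as raw counts for 12 libraries, on genome build mm10 per the submitters' processing notes. Per the labels' protocols, 250 ng of RNA entered each TruSeq v2 library, a kit without strand marking. No source used here names the aligner or counting settings. Without strand, 154 exon bases that Cnp shares with Dnajc7, on the opposite strand, and 79 that Mobp shares with a predicted gene cannot be assigned. Exon lengths and coordinates came from GENCODE M21 (GRCm38).

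The 9 genes and the marker lists were chosen with earlier results of these data known. Groups came from the labels. Genes were filtered with filterByExpr, scaled by TMM and tested with edgeR 4.0.16 (R 4.3.3, quasi-likelihood F test, robust) in 1 fit of all 12 libraries and 4 groups, with an adjusted p threshold of 0.05. CPM of single libraries and group means use library totals. Correlations used log2 CPM scaled by TMM with a prior count of 2, and 100000 permutations. Genes named were all 9, the 2 with the smallest p of each lineage list in each labelled sex, and the 10 most like the 9, with predicted genes passed over. Some genes that this rule takes are not named here. Other genes named as examples of a list were chosen after their values were seen. Of the 18 pairs of libraries with the same replicate number, 2 had deviations correlated above 0.1, so the numbers were not taken to pair the pools. Replicates differed by more than sampling noise. In 1 simulation of the labelled-female contrast (17469 genes tested), 50 genes were changed at each of 4 fold changes. The fit recovered 20% at 1.2-fold, 68% at 1.5-fold, 80% at 2-fold and 98% at 4-fold, with 12 false calls. Each gene was drawn on its own, without the shared rise and fall between pools seen in the data. These shares therefore need not hold for the data. Alternatives were DESeq2 1.42.0, RLE scaling, 2 other filters, a replicate block, limma voom 3.58.1 with quality weights, an adjusted p of 0.1, the compared groups alone, leaving out libraries, and, for correlations, library totals, rho, deviations from group means and a prior count of 0.5. Leaving out the 2 pools with high Mobp was added after the data were seen.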

Additional observations from a re-analysis of the deposited data

How the results depend on the processing

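No alternative brought any of the 8 tested myelin genes past the threshold. The alternatives gave 682 values, each of 1 gene in 1 contrast under 1 setting, so these are not separate analyses. Their lowest adjusted p was 0.254 (edgeR), for Mag in labelled-male libraries without a low-count filter. Counts over all genes did move from 0. DESeq2 called 1 gene in labelled-female libraries and 1 for the difference between labelled sexes. Without a filter 103, 5, 14 and 66 genes were called (labelled female, labelled male, difference, mean), and the labelled-female groups alone gave 415. Leaving out 1 library gave 0 to 2 calls in labelled-female libraries and 0 to 144 for the mean, the 2 and the 144 both without labelled-male SERTPyramid replicate 2. The replicate block left 0 calls in all 4 contrasts; same-numbered pools had correlations of -0.225 to 0.234.

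The sign of a difference turned in 45 cases. With control replicate 1 of both labelled sexes left out, labelled-female differences became 0.11 for Mag, 0.01 for Cnp, 1.10 for Mobp and 0.0086 for Ugt8a, the labelled-male one -0.02 for Cldn11, and the differences between labelled sexes 0.00026 for Mbp, 0.27 for Cldn11 and 0.08 for Myrf. Without the 2 pools with high Mobp they became 0.11, 0.01, 1.10 and 0.009 for Mag, Cnp, Mobp and Ugt8a in labelled-female libraries, -0.07 for Cldn11 and -0.02 for Ugt8a in labelled-male ones, 0.35, 0.32, 0.03 and 0.09 for Mobp, Cldn11, Ugt8a and Myrf between labelled sexes, and -0.0056 for Ugt8a on average. Limma voom gave 0.05 for Mobp in labelled-female libraries, 0.07 for Cldn11 between labelled sexes and -0.0036 for Ugt8a on average. Leaving out 1 library, labelled-female differences ran from -0.25 to 0.11 for Mag, -0.03 to 0.01 for Cnp, -0.06 to 0.11 for Mbp, -0.05 to 0.13 for Mog, -1.21 to 1.10 for Mobp, -0.05 to 0.25 for Cldn11, -0.19 to 0.0083 for Ugt8a and -0.03 to 0.20 for Myrf. Labelled-male ones ran from -0.07 to 0.36 for Cldn11 and -0.02 to 0.18 for Ugt8a, the difference between labelled sexes from -0.30 to 0.14 for Cldn11, and the mean from -0.002 to 0.21 for Cldn11 and -0.04 to 0.06 for Ugt8a. Some differences kept their sign but moved when control replicate 1 of both labelled sexes was left out. In labelled-female libraries Cldn11 went from 0.07 to 0.25, Myrf from 0.08 to 0.20, Mbp from 0.02 to 0.11 and Mog from 0.05 to 0.13. In labelled-male libraries Myrf went from 0.22 to 0.12 and Mbp from 0.21 to 0.11. The cause of these changes was not tested.

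For Mag in labelled-male libraries these differences stayed between 0.27 and 0.72, and for Mobp between 0.75 and 2.76. The median r over the 36 pairs was 0.244 to 0.469 when 1 library was left out, lowest without labelled-male SERTPyramid replicate 1, and 0.148 without the 2 pools with high Mobp. With 3 pools a group, and 0 to 3 counts of Opalin and 4 to 76 of Mobp, differences in these 2 genes are limited by counts as well as by pools.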
